A study of Mus musculus with 6 samples.

Results

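The G1 control genes described here are 3 D-type cyclins (Ccnd1, Ccnd2 and Ccnd3), the kinases they bind (Cdk4 and Cdk6), cyclin E1 (Ccne1), 3 inhibitors of cyclin-dependent kinases (Cdkn1b, Cdkn2c and Cdkn2d) and the retinoblastoma gene Rb1. They are 10 of the 19938 genes that the arrays measured with a probe set of a single symbol, and were chosen by name. A gene with several such probe sets was read from the one of highest mean over all 6 arrays, and all 10 genes passed the filter that left out the dimmest 30% of genes. The values are log2 expression from 6 Affymetrix arrays, 1 per mouse: 3 wild type and 3 MYB knockdown males of the C57BL6 strain, 4 weeks old. The sorted marrow cells were positive for Kit and for CD11b and low for lineage markers (K11bL), a gate of myeloid progenitors that the series title calls myeloproliferative. No promoter, cell type or vector that carries the knockdown is named in the labels, and no further allele or agent is named for either group.

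In G1, D-type cyclins switch on Cdk4 and Cdk6, which begin to phosphorylate the retinoblastoma protein and so loosen its hold on E2F transcription factors. Cyclin E is itself a target gene of E2F, and with Cdk2 it completes that phosphorylation and helps start DNA replication. Inhibitors of the INK4 family, which include the products of Cdkn2c and Cdkn2d, bind Cdk4 and Cdk6 alone, while p27, the product of Cdkn1b, acts above all on cyclin E and cyclin A complexes. Blood progenitors lean on Cdk6 and on Ccnd2 and Ccnd3 more than many other tissues do, and D cyclins answer to growth factors and cytokines. Myb is a transcription factor needed for the expansion of blood progenitors.

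Over all genes, 1619 of the 13956 tested changed between the groups, 854 of them higher and 765 lower in the knockdown; with each array centred on its median the split was 1433 higher and 593 lower. Array medians lay between 5.87 and 5.99. Knockdown mouse 3 stood apart, with correlations over all probe sets of 0.977 and 0.984 with the other 2 knockdown arrays, which correlated at 0.994 with each other. Myb had values of 11.47, 11.46 and 11.46 in wild type and 11.26, 11.08 and 11.14 in knockdown, a fall by 0.30 ± 0.06 (SE of the fit; limma, Benjamini-Hochberg adjusted p = 0.0196). Myb lost its call after median centring (adjusted p = 0.074), with eBayes run without a trend (0.0662) and without any of the wild type mice or knockdown mouse 2 (0.0777 to 0.0963). Kit, a marker of the sort, lay between 10.38 and 10.58 in wild type and between 10.21 and 10.24 in knockdown. Its difference of -0.27 ± 0.08 was not called (limma, adjusted p = 0.06). Kit was called after quantile normalization (0.0405), with the dimmest 50% left out (0.0497), with weights per array (0.00423) and at a threshold of 0.1. It was called in 1 of the 6 fits that leave out an array, and not after median centring (0.138). Itgam, which encodes CD11b, lay between 9.81 and 9.90 in wild type and between 9.07 and 9.85 in knockdown. The Itgam difference of -0.39 ± 0.17 was not called (limma, adjusted p = 0.202). It was called with weights per array (0.0318) and in 1 of the 6 fits that leave out an array.

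Cyclin D1 and cyclin E1 transcripts were higher and Cdk6 transcripts lower in the knockdown, while the other 7 G1 genes did not pass the test. So 3 of 10 were called at an adjusted p under 0.05, against 11.6% of all genes tested. Of these, 2 were higher, against 6.12% of all genes, and 1 was lower, against 5.48%. All 10 genes were brighter than 50% of the genes measured. With the dimmest 50% left out, 1538 of 9969 genes tested were called, and again 3 of the 10. The groups did not overlap for 5 of the 10 genes (Ccnd1, Ccnd3, Ccne1, Cdkn2d and Cdk6), against 34.3% of all genes. The median difference of the 10 genes was 0.01 on the log2 scale, and that of all genes tested 0.02. The same 3 genes were called without knockdown mouse 3, a fit that called 3794 of all 13956 genes tested. Each difference is the knockdown mean less the wild type mean in log2 units, given with the SE of a limma fit over all genes. Groups hold 3 mice each, and p-values are adjusted over all 13956 genes. Fewer cells of a type and less RNA per cell cannot be told apart in sorted bulk samples such as these.

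**Figure D1:**
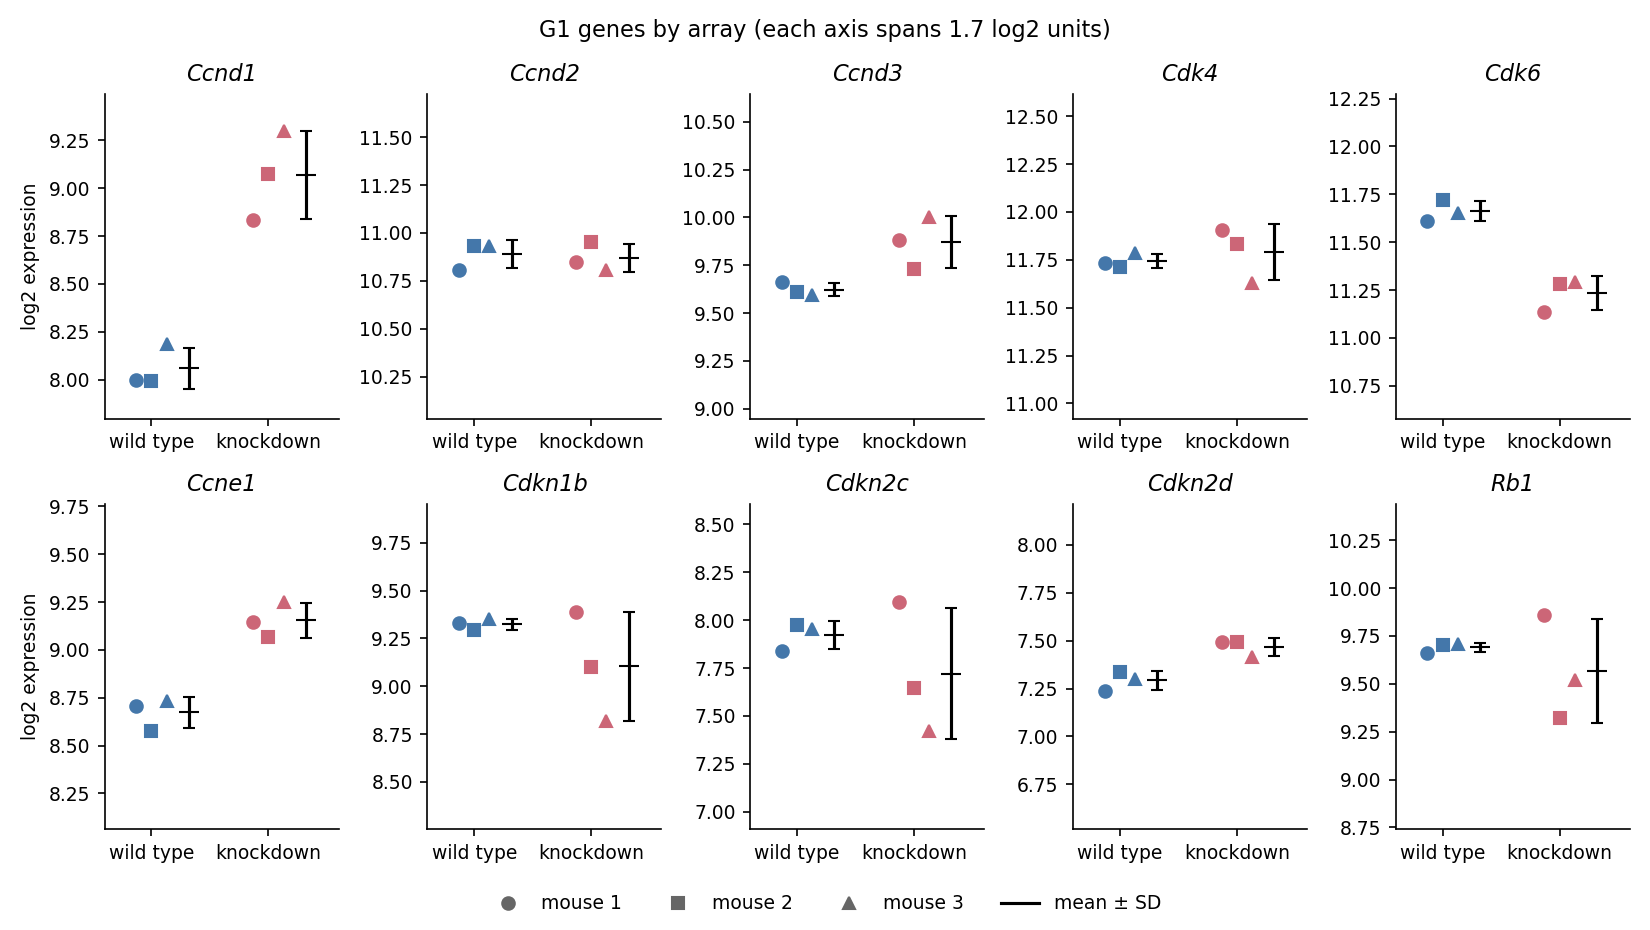
Log2 expression of the 10 G1 genes in each mouse, with wild type in blue and knockdown in red; symbols mark the mouse number, which pairs no animals, and bars show the mean and SD of 3 mice. Ccnd1 and Ccne1 sit higher and Cdk6 lower in all 3 knockdown mice, and Cdkn1b, Cdkn2c and Rb1 spread more widely among knockdown than among wild type mice.

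Ccnd1 encodes cyclin D1, the D-type cyclin of most epithelia and of many tumours. Its log2 values were 8.0, 7.99 and 8.18 in wild type mice 1, 2 and 3, and 8.84, 9.07 and 9.30 in the knockdown mice. The lowest knockdown value lay above the highest wild type value, and the groups did not overlap. Ccnd1 rose by 1.01 ± 0.13 (2.01-fold, adjusted p = 0.00222), and 118 of the 13956 genes tested, itself included, rose by at least as much. The rise passed the test under all 17 alternatives tried, with differences between 0.89 and 1.13.

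Ccnd2 encodes cyclin D2, a D-type cyclin induced by cytokines in blood cells. Its values were 10.81, 10.93 and 10.93 in wild type and 10.85, 10.95 and 10.81 in knockdown, so the groups overlapped. The difference was -0.02 ± 0.07 (adjusted p = 0.914), with a 95% interval of the fit from -0.18 to 0.14. That interval holds no change as large as the 2.01-fold rise of Ccnd1. In brightness its probe set stood above 98.1% of the genes measured, a range in which arrays may compress changes.

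Ccnd3 encodes cyclin D3, on which several blood lineages depend for their expansion. Its values were 9.66, 9.61 and 9.59 in wild type and 9.88 and 9.73 in knockdown mice 1 and 2, while knockdown mouse 3 was the highest, at 0.38 above the wild type mean. Each knockdown value lay above each wild type value, by 0.07 for the closest pair. The difference of 0.25 ± 0.09 did not pass the test over all genes (adjusted p = 0.135, unadjusted p = 0.0274), and under the 17 alternatives it stayed positive and was called in 0, with adjusted p-values from 0.0608 to 0.365.

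Ccne1 encodes cyclin E1, the partner of Cdk2 at the end of G1. Its values were 8.71, 8.58 and 8.73 in wild type and 9.15, 9.07 and 9.25 in knockdown, with no overlap. Ccne1 rose by 0.48 ± 0.10 (1.40-fold, adjusted p = 0.0166). The call was lost without wild type mouse 1, 2 or 3, with adjusted p-values of 0.0761, 0.0966 and 0.0682 and differences of 0.50, 0.43 and 0.51. Its relative Ccne2, cyclin E2, differed by 0.01 ± 0.15 (adjusted p = 0.986), with values from 8.89 to 9.30 in wild type and from 8.90 to 9.33 in knockdown.

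Promoter windows were read for 7 of the 10 genes (Ccnd3, Cdk4, Cdk6, Ccne1, Cdkn1b, Cdkn2c and Cdkn2d; 9 windows), from RefSeq on the build GRCm38.p6. Each window runs from 250 bases before to 50 bases after a start site, and was searched on both strands for short words of factors named in the design or known for these genes: TTTCGCGC, TTTGGCGC and TTTCCCGC for E2F, CAACNG and TAACNG for MYB, CACGTG for MYC, TTCNNNGAA for STAT and GTAAACA for FOXO. The sequences below are the 250 bases upstream of the start for the 2 called genes that have a window and for 2 uncalled genes whose windows hold MYB words, 5′ to 3′ in the direction of the gene, with every matched word in capitals. They lie at chr7:38107491-38107740 on the minus strand (Ccne1), chr5:3343643-3343892 on the plus strand (Cdk6), chr10:127063285-127063534 on the plus strand (Cdk4) and chr9:21291210-21291459 on the minus strand (Cdkn2d).
Ccne1: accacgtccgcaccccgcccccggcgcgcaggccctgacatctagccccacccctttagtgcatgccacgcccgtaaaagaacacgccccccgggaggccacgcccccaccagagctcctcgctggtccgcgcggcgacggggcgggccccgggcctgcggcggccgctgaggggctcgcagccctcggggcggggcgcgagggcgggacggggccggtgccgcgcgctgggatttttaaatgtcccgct
Cdk6: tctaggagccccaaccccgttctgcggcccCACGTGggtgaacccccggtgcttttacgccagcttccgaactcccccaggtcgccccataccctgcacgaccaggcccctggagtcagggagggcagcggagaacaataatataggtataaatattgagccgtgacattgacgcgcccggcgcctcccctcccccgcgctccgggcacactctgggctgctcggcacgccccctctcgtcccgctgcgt
Cdk4: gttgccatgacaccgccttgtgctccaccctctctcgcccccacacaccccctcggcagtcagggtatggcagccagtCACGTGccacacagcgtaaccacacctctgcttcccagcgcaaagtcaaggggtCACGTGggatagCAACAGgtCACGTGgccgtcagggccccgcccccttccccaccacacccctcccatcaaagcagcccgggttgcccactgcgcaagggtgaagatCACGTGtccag
Cdkn2d: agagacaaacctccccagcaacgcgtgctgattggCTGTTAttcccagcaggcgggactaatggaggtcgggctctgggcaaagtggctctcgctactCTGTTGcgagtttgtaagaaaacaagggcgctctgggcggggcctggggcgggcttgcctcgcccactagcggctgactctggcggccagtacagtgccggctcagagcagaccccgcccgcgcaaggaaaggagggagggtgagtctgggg
In Ccne1, which rose, no searched word was found in the 300 bases, which were 76.0% G and C with 41 CpG pairs, against medians of 52.7% and 7 over the 32817 windows of all genes. In Cdk6, which fell, the only match was 1 CACGTG, found in 7.15% of all windows.

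The window of Cdk4 held 4 copies of CACGTG, a number reached by 8 of the 32817 windows including its own, and 1 MYB word, CAACNG. That of Cdkn2d held 2 MYB words, 1 of each kind. A MYB word of either kind was found in 49.7% of all windows and in 5 of the 9 windows of G1 genes (Ccnd3, Cdk4, Cdkn2d and both windows of Cdkn2c), so its presence is common. No E2F word was found in the 9 windows, against 1.84% of all windows, and no STAT word, against 8.29%. CACGTG was also found in 1 of the 2 windows of Cdkn2c. GTAAACA was found in 1 of the 2 windows of Ccnd3 and in 3.65% of all windows. In these 9 windows, words of different factors overlapped in 0 cases. A matched word is a run of letters and not a measured binding site, and a missing one says nothing of the factor.

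Cdk6 and Cdk4 are the catalytic partners of the D cyclins. Cdk6 had values of 11.61, 11.72 and 11.65 in wild type and 11.13, 11.28 and 11.29 in knockdown, and each knockdown value lay below each wild type value. Cdk6 fell by 0.43 ± 0.07 (1.34-fold, adjusted p = 0.00468), and the fall passed the adjusted p under each alternative, with differences between -0.46 and -0.35. It is under 1.5-fold, so that it was not called where a change of at least 1.5-fold was also asked for. In brightness its probe set stood above 99.2% of the genes measured. Cdk4 had values of 11.73, 11.71 and 11.79 in wild type and 11.91, 11.83 and 11.63 in knockdown. Its knockdown values lay on both sides of the wild type ones, with a difference of 0.05 ± 0.08 (adjusted p = 0.778; 95% interval of the fit from -0.13 to 0.22). The Cdk4 probe set stood above 99.6% of the genes measured in brightness, a range in which arrays may compress changes.

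**Figure D2:**
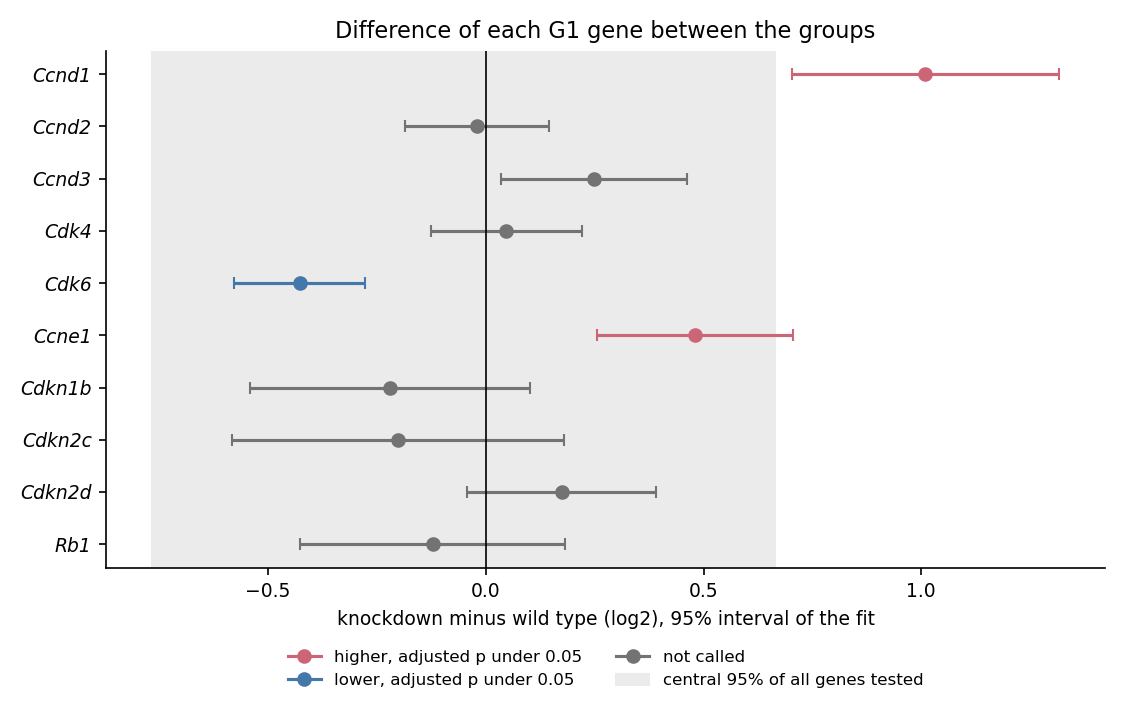
Difference of each G1 gene, knockdown minus wild type in log2 units, with the 95% interval of the limma fit; red and blue mark genes called higher and lower, and the grey band holds the central 95% of all 13956 genes tested (-0.77 to 0.66). Ccnd1 lies outside the band at 1.01, while Ccne1 (0.48) and Cdk6 (-0.43) lie inside it.

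The inhibitors did not pass the test. Cdkn1b encodes p27, which holds cells in quiescence. Its values were 9.33, 9.29 and 9.35 in wild type and 9.39, 9.10 and 8.82 in knockdown, a difference of -0.22 ± 0.14 (adjusted p = 0.391). Knockdown mouse 1 lay above the wild type mice and knockdown mice 2 and 3 below them. A second, dimmer probe set of Cdkn1b read 7.14, 6.66 and 7.12 in wild type and 7.48, 7.07 and 6.04 in knockdown. On it, too, knockdown mouse 1 was the highest of the 6 arrays and knockdown mouse 3 the lowest, and its difference was -0.11 ± 0.32 in a fit over all probe sets of a single symbol (adjusted p = 0.92).

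Cdkn2c encodes the INK4 inhibitor p18. It read 7.84, 7.97 and 7.96 in wild type and 8.09, 7.65 and 7.42 in knockdown, a difference of -0.20 ± 0.17 (adjusted p = 0.523). As for Cdkn1b, knockdown mouse 1 was the highest and knockdown mouse 3 the lowest of the 6 arrays. Without knockdown mouse 1 the differences of Cdkn2c and Cdkn1b were -0.39 and -0.36, and without knockdown mouse 3 they were -0.05 and -0.08, so 1 array moved each of them by over 1.5 times, with no call in either case. Cdkn2d encodes p19, an INK4 inhibitor of later G1 and S phase. It read 7.24, 7.34 and 7.30 in wild type and 7.49, 7.49 and 7.41 in knockdown, with no overlap. Its difference of 0.17 ± 0.09 did not pass the test (adjusted p = 0.304, unadjusted p = 0.101).

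Rb1 encodes the retinoblastoma protein, the substrate of these kinases. Its values were 9.66, 9.70 and 9.71 in wild type and 9.86, 9.32 and 9.52 in knockdown, on both sides of the wild type range. The difference was -0.12 ± 0.13 (adjusted p = 0.651), with values of -0.27 and 0.00 on leaving out knockdown mouse 1 or 2. For 9 of the 10 G1 genes the range over the knockdown mice was wider than that over the wild type mice, which was so for 79.9% of all genes tested. The exception was Cdkn2d, with ranges of 0.10 in wild type and 0.08 in knockdown.

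**Figure D3:**
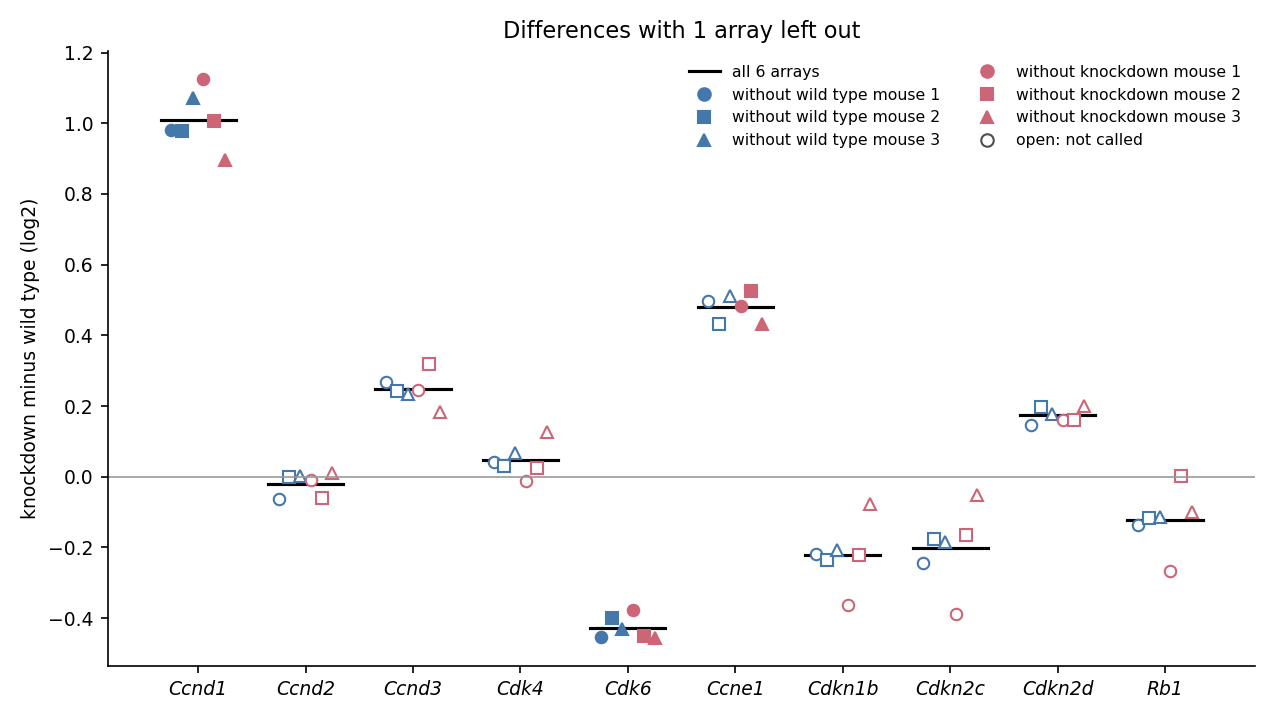
Difference of each G1 gene on all 6 arrays (black line) and with each array left out in turn, in log2 units; blue and red symbols leave out a wild type or a knockdown mouse, and open symbols are differences that were not called. Ccnd1 and Cdk6 were called in all 6 fits and Ccne1 in 3, and Cdkn2c ranged from -0.39 without knockdown mouse 1 to -0.05 without knockdown mouse 3.

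Whether relatives changed by unequal amounts was asked within each array, for 5 pairs, with an exact two-sided permutation test over the 6 arrays. With 3 mice against 3 it cannot give a p under 0.10, and adjusted over the 5 pairs the smallest value here was 0.125. The level of 1 probe set against another is not read here, and only the change of their difference is. Arrays may compress changes unequally where the probe sets of a pair differ in brightness, which was not tested. Relative to Ccnd2, Ccnd1 was higher in knockdown by 1.03 (exact p = 0.1, adjusted 0.125; n = 3 per group). In the 3 knockdown mice this shift was 0.82, 0.95 and 1.32 above the wild type mean, against -0.11 to 0.08 among wild type mice. Relative to Ccnd3, Ccnd1 was higher by 0.76 (exact p = 0.1, adjusted 0.125), with shifts of 0.52, 0.90 and 0.86. Ccnd2 against Ccnd3 shifted by -0.27 (exact p = 0.2, adjusted 0.2), with overlapping groups, and by -0.17 without knockdown mouse 3.

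For the kinases, Cdk6 shifted against Cdk4 by -0.47 (exact p = 0.1, adjusted 0.125). The 3 knockdown mice lay at -0.69, -0.47 and -0.26 relative to the wild type mean, all below the wild type mice at -0.05 to 0.09. For the INK4 inhibitors, Cdkn2c shifted against Cdkn2d by -0.38 (exact p = 0.1, adjusted 0.125). Its knockdown values were -0.03, -0.48 and -0.62, the first of them just below the lowest wild type value of -0.03.

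**Figure D4:**
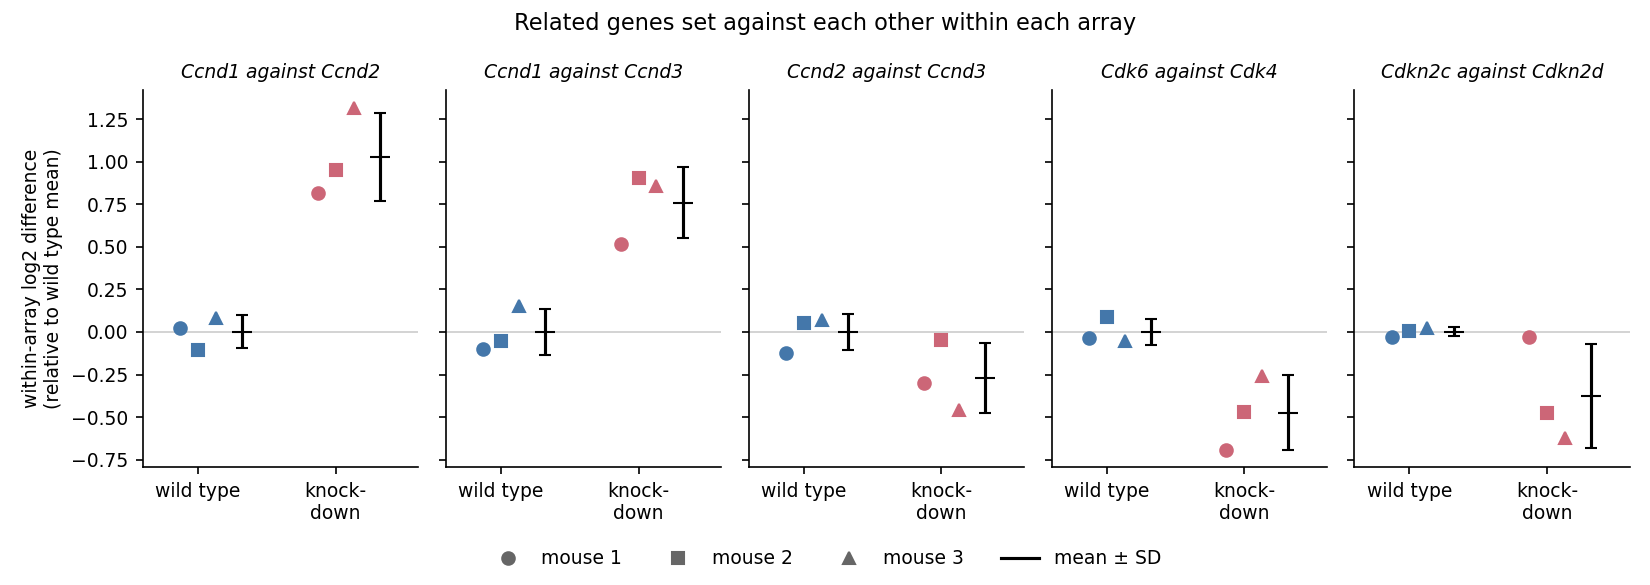
Log2 difference between 2 related G1 genes within each array, set to 0 at the wild type mean; symbols mark the mouse, and bars show the mean and SD of 3 mice. Ccnd1 shifted upward against both Ccnd2 (1.03) and Ccnd3 (0.76), and Cdk6 downward against Cdk4 (-0.47), with no overlap of the groups.

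Of 59 other genes of the G1 pathway that were tested, in 7 lists (61 listed, 60 measured), 2 were higher and 2 lower, which is 4 calls beside 11.6% of all genes. Their median difference was 0.04, and the groups did not overlap for 18 of them, against 34.3% of all genes. Without knockdown mouse 3, 10 were higher and 3 lower, where 2397 and 1397 of all genes were called. Among the other G1 and S phase cyclins, kinases and CDC25 phosphatases, 8 of 9 were tested and 2 called. Cdc25a, a phosphatase that removes inhibitory phosphates from Cdk2, read 10.35, 10.19 and 10.26 in wild type and 9.86, 9.84 and 9.80 in knockdown. It fell by 0.43 ± 0.08 (adjusted p = 0.0103). Cdc25b, a phosphatase best known at the entry into mitosis, rose by 0.51 ± 0.13 (adjusted p = 0.0354) from 7.61, 7.86 and 7.95 to 8.29, 8.20 and 8.47. Leaving out wild type mouse 1 or 3 ended the call of Cdc25a (adjusted p = 0.0733 and 0.062). The rise of Cdc25b was called in only 1 of the 6 fits that leave out an array, the one without knockdown mouse 3. Cdk2, the partner of cyclin E, differed by -0.15 ± 0.08 (adjusted p = 0.316), and Ccna2, cyclin A2 of S phase, by 0.04 ± 0.06 (adjusted p = 0.804).

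The counts of calls in the next 5 lists stand beside 11.6% called of all genes tested. With lists this short, nothing about a list is read from 0 calls. None of the 3 other inhibitors tested (Cdkn1c, Cdkn2a and Cdkn2b) was called by limma, and their differences lay between -0.11 and 0.16. No value is given for Cdkn1a, which is not analysed here. None of the 3 genes of the CDK-activating kinase was called either, but its subunit gene Mnat1 (0.18 ± 0.11, adjusted p = 0.354) was called without knockdown mouse 3 (difference 0.27, adjusted p = 0.0473). Of 10 E2F factors and partners 0 were called and 7 were above 0, with a median of 0.10, against 7482 above 0 of the 13956 genes tested. E2f4, a repressive E2F of resting cells, read 9.16, 9.26 and 9.26 in wild type and 9.43, 9.56 and 10.33 in knockdown, a difference of 0.55 ± 0.21 (adjusted p = 0.144). It is named after its values were seen. Without knockdown mouse 3, the highest of these, the difference of E2f4 was 0.27 and was called (adjusted p = 0.018). E2f7, an atypical repressor named on the same ground, differed by 0.26 ± 0.10 (adjusted p = 0.135), and was called without knockdown mouse 3 as well (0.0493). E2f1, the activating E2F most studied as a target of the Rb pathway, differed by 0.02 ± 0.09 (adjusted p = 0.93). The 7 pocket proteins and MuvB subunits, which together can repress cell cycle genes in resting cells, gave 0 calls and a median of -0.09. The 12 genes in the list on ubiquitin ligases for G1 proteins gave 0 calls and a median of 0.01. Among them Skp2, which marks p27 for destruction, differed by -0.07 ± 0.09 (adjusted p = 0.711). Of these Rbx1, a ring-finger subunit named like Mnat1 after its values were seen, was called without knockdown mouse 3 (0.34, adjusted p = 0.0431), where all 6 arrays gave 0.07 ± 0.22 (adjusted p = 0.893). The fit without knockdown mouse 3 called 3794 of the 13956 genes tested, so the calls of Mnat1, E2f4, E2f7 and Rbx1 there are not particular to this pathway. Over the 35 genes tested in these 5 lists of no calls, the unadjusted p by limma was under 0.05 for 3: E2f4, E2f7 and E2f8. The same count over all genes tested is not given here, so nothing about these lists is read from it.

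Of 16 genes that act upstream on D cyclins and p27, 1 was higher and 1 lower, 12 had differences above 0, and the median was 0.25. Over all 13956 genes tested, 11.6% were called, 7482 had differences above 0, and the median was 0.02. Akt1, a kinase that stabilises D cyclins, read 10.45, 10.48 and 10.55 in wild type and 10.71, 10.83 and 10.81 in knockdown. It rose by 0.29 ± 0.07 (adjusted p = 0.0344), a call that was lost with eBayes run without a trend (0.0716), and on leaving out knockdown mouse 2 (0.124) or wild type mouse 1, 2 or 3 (0.157, 0.141 and 0.1). Gfi1, a repressor of transcription in granulocyte progenitors, fell by 1.49 ± 0.12 (adjusted p = 0.000192). Myc, which drives Ccnd2 and Cdk4 in many cells, read 11.19, 11.23 and 11.33 in wild type and 11.41, 11.48 and 11.57 in knockdown. Its difference of 0.24 ± 0.07 missed the threshold (adjusted p = 0.0586), and it passed after median centring (0.0239) and without knockdown mouse 3 (0.0329). Stat5a and Stat5b, which carry cytokine signals to Ccnd2, differed by 0.22 ± 0.11 (adjusted p = 0.243) and 0.18 ± 0.11 (adjusted p = 0.391).

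**Figure D5:**
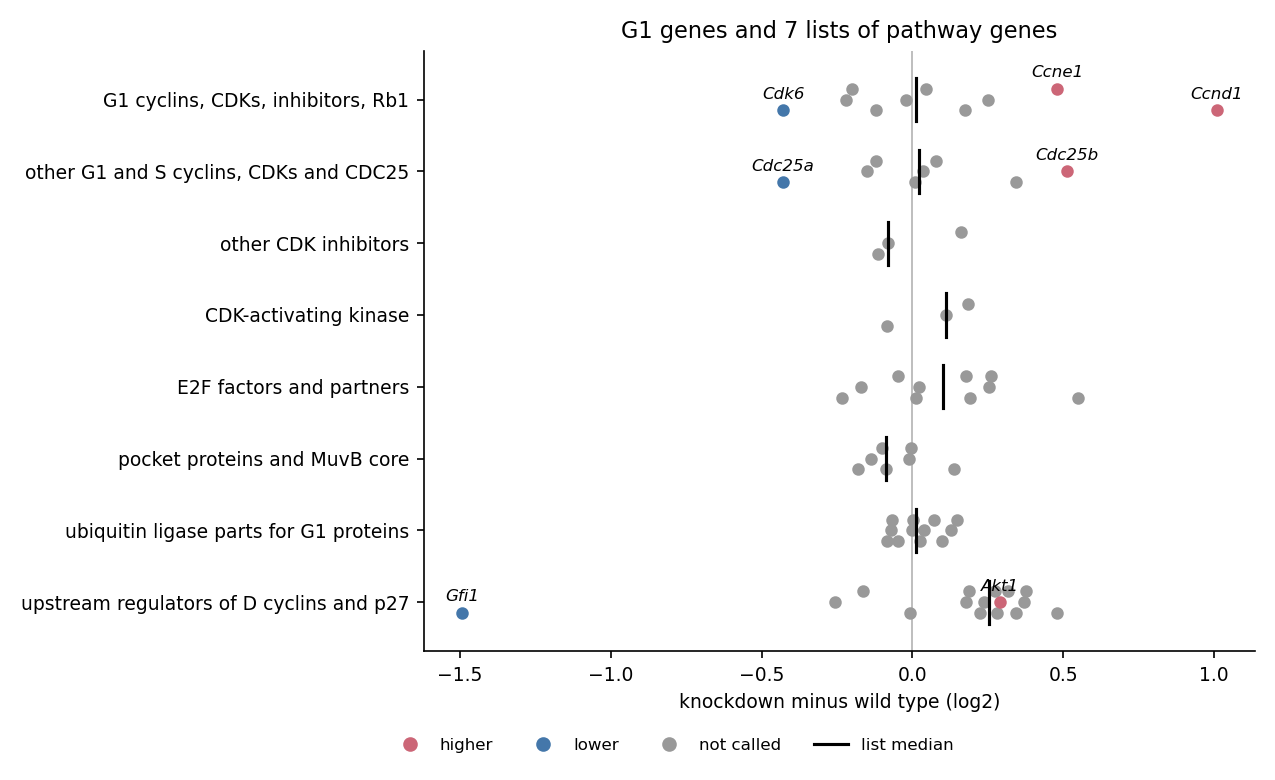
Differences of the G1 genes and of the genes tested in 7 lists of the same pathway, knockdown minus wild type in log2 units; each point is a gene, red and blue mark calls, and black lines are list medians. Most points are uncalled, Gfi1 lies lowest at -1.49, and no pathway gene rose as much as Ccnd1.

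Several lists of markers of blood cell types and stages held more calls than the 11.6% of all genes tested. Whether these markers were read from the sorted progenitors themselves or from other cells was not tested. Of 8 megakaryocyte and platelet markers 7 were higher, with a summed level (log2 of the summed linear values) of 10.82 to 10.97 in wild type and 12.09 to 12.30 in knockdown. Of 10 stem and early progenitor markers 8 were higher (12.33 to 12.45 against 12.98 to 13.06). Of 12 neutrophil granule markers 9 were lower (15.53 to 15.54 against 13.94 to 14.41), and of 9 markers of eosinophils, basophils and mast cells 7 were lower and 1 higher (13.06 to 13.38 against 11.11 to 11.59). Of 9 monocyte and macrophage markers 3 were lower and 1 higher (12.87 to 13.06 against 12.50 to 12.67). Of 10 B lymphoid markers 4 were lower (10.71 to 11.13 against 10.39 to 10.45 over 11 measured). The B lymphoid markers called lower numbered 2 without the filter on dim genes or without the trend of eBayes. They numbered 3 after quantile normalization and 7 with weights per array. Of 9 erythroid markers 1 was higher, a share near that of all genes. This call was lost after quantile normalization, without the filter on dim genes, with eBayes robust or without trend and at a minimum of 1.5-fold. It was also lost on leaving out knockdown mouse 1 or wild type mouse 1 or 3. For this list knockdown mice 1, 2 and 3 stood at 12.78, 12.28 and 13.13 against 12.43 to 12.77 in wild type. Of 5 T and NK markers tested 1 was higher (8.40 to 8.62 against 8.63 to 9.0 over 10 measured). Values on these arrays have no zero, so that no marker can be called absent. The part that cell types or stages have in the differences of Ccnd1, Ccne1 and Cdk6 was not tested.

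The profiles most like those of the 3 called G1 genes were found by the root mean square distance between log2 profiles, each centred on its own mean, over the 6 arrays. For Ccnd1 the nearest were Them6 and Pbx3, at distances of 0.06 and 0.06, with rises of 1.11 and 1.09. Nearest to Cdk6 were Kctd14 and Arsg, at 0.02 and 0.03, with falls by 0.39 and 0.45. For Ccne1 they were Iffo2 and Mast4, at 0.03 and 0.04, with rises of 0.50 and 0.45. These 6 genes were picked from 13956 for this likeness, so no test is given for it.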

How the data were processed

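The authors deposited 1 log2 expression value per probe set and array. The submitters' processing notes name Affymetrix Expression Console and limma; for their versions, their roles and the normalization, nothing is given in the sources used here. That the scale is log2 was judged from the values, which run from 1.83 to 13.3. Trizol extraction and a whole-transcript labelling kit were used, per the labels' protocols. Arrays have no read depth, so their number limits the precision, and no scan dates were used here. Of 35556 probe sets, 21789 carried 1 symbol in the platform annotation and 1621 several; the table used here does not list the remaining 12146.

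Groups were compared with limma 3.58.1 under R 4.3.3 (lmFit, then eBayes with a trend, no covariates), adjusting by Benjamini-Hochberg over 13956 genes at a threshold of 0.05. The labels name separate mice. The fit was tested on simulated data. The G1 genes and all lists were chosen with earlier results of these data known. Named genes are the 10 G1 genes, Myb, Kit, Itgam, called pathway genes (up to 4 per list) and the 2 nearest profiles of the 3 called G1 genes of smallest p; other pathway genes are named for their role or where marked. Alternatives were the replicate block, each array left out (with genes as chosen on all arrays), quantile normalization, median centring, filters of none or 50%, the mean of probe sets, eBayes robust or without trend, weights per array, a threshold of 0.1 and a minimum of 1.5-fold.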

Additional observations from a re-analysis of the deposited data

How the results depend on the processing

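Among the G1 genes, Ccnd1 was called under all 17 alternatives, Cdk6 under 16 and Ccne1 under 13, and the other 7 under 0 of 17. At least 1.5-fold ended the calls of Cdk6 (-0.43) and Ccne1 (0.48) and left 1 G1 gene called, 1 higher and 0 lower, with 1 pathway gene, 0 higher and 1 lower, and 915 genes in all, 407 higher and 508 lower. With 1 array left out, the called G1 genes numbered 2 to 3 (1 to 2 higher, 1 lower in each fit), the pathway genes 1 to 13 (0 to 10 higher and 1 to 3 lower), and all genes 663 to 3794 (296 to 2397 higher and 367 to 1397 lower). The lowest counts over all genes came without wild type mouse 1 and the highest without knockdown mouse 3. Ccne1 then differed by 0.43 to 0.52, with adjusted p-values from 0.00248 to 0.0966. Array weights called 3912 genes, 2351 higher and 1561 lower, and 13 pathway genes, 10 of them higher. Median centring gave 1433 higher genes and an adjusted p of 0.1 gave 1374, each with 4 pathway genes higher. Pathway genes called higher numbered 1 without the trend of eBayes. The cause of these changes was not tested; fits without an array have fewer mice.

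With the replicate number as a block (replicate block), 1 pathway gene was called higher, Akt1 having lost its call (adjusted p = 0.0654), and the same 3 G1 genes were called. The numbers name different mice, so same-numbered arrays were not taken as pairs. Deviations of same-numbered arrays from their group means correlated at 0.29, -0.19 and -0.08, and those of differently numbered arrays between -0.37 and 0.36. These correlations cannot decide on pairing, because the deviations of the 3 arrays of a group sum to 0. The shifts between related genes kept their sign with each array left out: 0.89 to 1.14 for Ccnd1 against Ccnd2, 0.69 to 0.88 for Ccnd1 against Ccnd3, -0.38 to -0.17 for Ccnd2 against Ccnd3, -0.58 to -0.36 for Cdk6 against Cdk4 and -0.55 to -0.25 for Cdkn2c against Cdkn2d.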
